A study of Mus musculus with 7 samples.

Results

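The mitochondrial respiratory chain of C2C12 cells, a mouse skeletal muscle cell line, was followed at the mRNA level after the cells had been incubated with exosomes from other C2C12 cells. Members were all array probes whose gene name began with Nduf, Uqcr, Cox4 to Cox8 or Atp5, or was Sdha, Sdhb, Sdhc or Sdhd. The names of 88 genes with 118 probes met this rule. Of these genes, 85 had a probe well above background on at least 3 arrays of one group, and each was represented by its brightest such probe. They made up 85 of the 17477 gene names tested. Among them 78 encoded subunits of complexes I to V, and 7 carried a matching name without being a subunit: the assembly factors Ndufaf1, Ndufaf2, Ndufaf3 and Ndufaf4, and Cox4nb, Atp5s and Atp5sl. Cox8c, Cox7b2 and Ndufa4l2 did not pass, being well above background on 1, 0 and 0 of the 7 arrays.

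EXO-BSA cells (n = 4 arrays) were incubated with exosomes released by BSA-treated myotubes. EXO-Palm cells (n = 3 arrays) received exosomes from myotubes exposed to 0.5 mM palmitate, a saturated fatty acid that impairs insulin signalling in muscle. No free palmitate was added to the recipient cells, and the exosomes were collected after its removal from the donor cells. The study found palmitate enriched in exosomes of palmitate-treated cells and proposes that such exosomes could transfer it. The recipient cells have no described genetic change and were incubated for a day in serum-free medium. The comparison asked which of their transcripts differ with the origin of the exosomes. The labels call the recipient cells myoblasts, whereas the study's methods describe differentiated myotubes. All 8 myotube markers examined were well above background on all 7 arrays, as were 4 of 5 myoblast markers (Myf5 was above background on none). So were 0 of 4 adipocyte, 1 of 4 osteoblast, 1 of 4 macrophage and leucocyte and 2 of 3 endothelial markers. These counts do not tell which description of the cells holds. All samples derive from a single cell line, so they represent neither animals nor donors.

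The respiratory chain passes electrons from NADH through complex I and from succinate through complex II to ubiquinone, then through complex III and cytochrome c to oxygen at complex IV. Complexes I, III and IV pump protons across the inner mitochondrial membrane, and complex V, the ATP synthase, uses the gradient to make ATP. Most subunits are encoded in the nucleus, a few in mitochondrial DNA, and several complex IV and V subunits exist as tissue-specific isoforms. Skeletal muscle is rich in these complexes, which supply ATP during sustained contraction.

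Signals are given as normalized log2 intensity, the log2 processed spot signal minus the 75th percentile of the same array. Values can therefore be compared between arrays for one probe, but not between probes. Between 48.5% and 70.3% of the probes of an array were well above background, and no spot was saturated. Correlations between arrays over the tested probes ranged from 0.95 to 0.98 both within and between the groups. As context for all the results that follow, all 6 markers of proliferating cells had positive log2 fold changes and 3 of them passed the test (Mki67, Ccnb1 and Top2a). The log2 of their summed signal was 2.09 to 2.45 on the EXO-BSA arrays and 3.68 to 5.19 on the EXO-Palm arrays. The part of this difference in the values of the respiratory chain was not tested. The summed myotube markers overlapped between groups (9.11 to 9.54 and 9.06 to 9.31), and no myotube marker passed, although 7 of 8 had negative log2 fold changes. Of 4 tested myoblast markers 2 were higher and 2 lower, and none passed. Des was higher on every EXO-Palm array than on every EXO-BSA array (0.50, limma adjusted p = 0.446). Whether the values of these markers follow the share of myoblasts was not tested.

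No respiratory chain gene passed the test between EXO-Palm and EXO-BSA cells. Of the 78 subunits, 0 had an adjusted p under 0.05 in limma's moderated test with Benjamini-Hochberg adjustment over all 21589 tested probes, of which 115 (0.533%) passed. At an unadjusted p under 0.05, 5 subunits passed (6.41%), against 10.0% of all tested probes. Here and below, all tested probes include the dimmer probes of a gene, whereas each subunit or listed gene is represented by its brightest. The shares are therefore not of like sets. The subunits' log2 fold changes (EXO-Palm minus EXO-BSA) had a median of -0.06, with 30 above 0 and 48 below, and the lowest was -1.12 (Atp5g3). The median over all tested probes was -0.02, with 52.7% of probes below 0. When EXO-Palm 1 was left out the median of the subunits was 0.03, so its sign rested on that array.

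The absence of calls can be set against the precision of the arrays. The median standard error of a subunit's log2 fold change was 0.26, against 0.27 over all tested probes. The 95% confidence interval lay wholly between -1 and 1, that is, within a 2-fold change either way, for 56 of the 78 subunits (71.8%), compared with 59.6% of all tested probes. For the other 22 subunits a change of 2-fold or more in at least one direction remained inside the interval. The median absolute log2 fold change was 0.18 over the subunits and 0.25 over all tested probes. All EXO-Palm arrays lay on one side of all EXO-BSA arrays for 4 subunits (5.13%), Atp5g3, Sdhc, Cox5b and Ndufa11, whereas this was so for 11.3% of all tested probes. In all 4 the EXO-Palm values were the lower ones. Of the 2432 such probes among all tested probes, the EXO-Palm values were the higher ones in 1165.

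**Figure D1:**
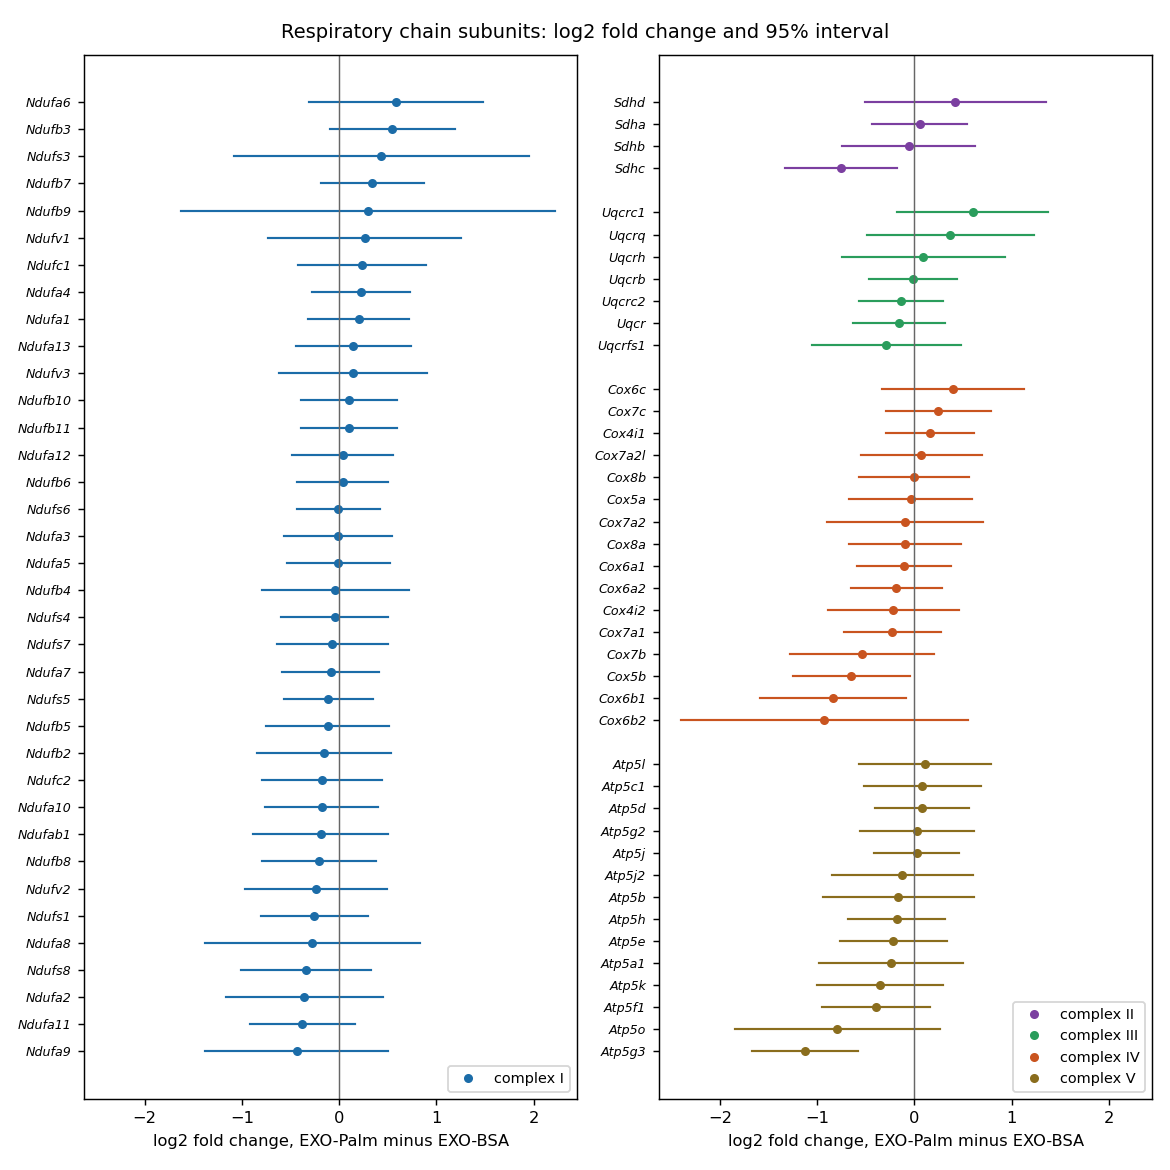
Log2 fold change (x axis, EXO-Palm minus EXO-BSA) of 77 of the 78 subunit genes with its 95% confidence interval (bars), ordered within complexes I to V. Most intervals include 0, and the intervals of Sdhc, Cox5b, Cox6b1 and Atp5g3 do not, although none of these passed after adjustment.

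The sequences behind the results described in most detail below were read from the array and from RefSeq. The ATP synthase genes Atp5g3 and Atp5c1 had the lowest log2 fold changes of all member probes. The first 30 of the 60 bases of their probes are shown, 5′ to 3′ in the sense of the transcript and in lower case throughout, because both Atp5c1 probes are assigned to the same gene and gave different values. All of them lie on the minus strand of chromosome 2 (mm9), at chr2:73746519-73746578 for Atp5g3, chr2:9977665-9977724 for Atp5c1 probe A_55_P2150906, and chr2:9977788-9980644 for Atp5c1 probe A_55_P2150908.
Atp5g3, A_55_P2046703: ccgaagactgtagtactggtgtcatggaaa
Atp5c1, A_55_P2150906: ccactgagttacaaaggcagcaggatgttt
Atp5c1, A_55_P2150908: tcatctctgggactgctgctctggattaat
The mapped span of A_55_P2150908 covers 2857 bases for a 60-base probe, so it reads across an intron. In the transcript it starts at base 1610, upstream of A_55_P2150906, which starts at base 1733.

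The 100 bases before the transcript start are shown for Atp5g3, Cox5b and Cox6b1, 3 of the 5 subunits with an unadjusted p under 0.05 (GRCm38.p6, RefSeq). They were chosen because each holds one of the motifs counted in the next paragraph, given here in capitals. The corresponding 100 bases of Atp5c1 and Ndufa11 held none of them. Atp5g3 (chr2:73911327-73911426, minus strand) holds the nuclear receptor element AAGGTCA on the opposite strand, Cox5b (chr1:36691387-36691486, plus strand) the NRF1 element TGCGCA, and Cox6b1 (chr7:30626115-30626214, minus strand) the ETS family motif CCGGAAG on the opposite strand.
Atp5g3: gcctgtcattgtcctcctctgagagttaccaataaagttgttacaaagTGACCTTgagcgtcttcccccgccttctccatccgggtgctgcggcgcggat
Cox5b: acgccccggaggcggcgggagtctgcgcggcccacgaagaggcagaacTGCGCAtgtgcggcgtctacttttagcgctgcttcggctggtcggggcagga
Cox6b1: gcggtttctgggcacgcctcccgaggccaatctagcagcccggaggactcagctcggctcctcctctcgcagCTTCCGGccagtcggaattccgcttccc

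RefSeq windows of 300 bases, 250 before and 50 after the transcript start, were found for 65 of the 78 subunit genes (70 windows). Exact matches were counted on both strands for the letters CCGGAAG (ETS family), AAGATGG (YY1), TGCGCA (NRF1 element, the same on both strands) and AAGGTCA (nuclear receptor element). The ETS motif was present in 22.9% of the subunit windows and 8.86% of all 32851 windows. The corresponding shares were 15.7% and 6.34% for the YY1 motif, 27.1% and 7.76% for the NRF1 element, and 11.4% and 4.72% for the nuclear receptor element. At least one of the motifs was present in 55.7% of the subunit windows and 24.5% of all windows. The subunit windows and all windows were not matched for base content or for expression in these cells. These are matches of letters and no measure of binding.

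Complex I, the NADH dehydrogenase, contributed 37 subunit genes. Their median log2 fold change was -0.01, with 16 above 0 and 21 below, the lowest at -0.44 (Ndufa9), and no gene past the test. Without EXO-Palm 1 the median was 0.12, with 22 above 0 and 15 below. The core subunits, among them those that carry the flavin and the iron-sulphur clusters, lay on both sides of 0.

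For core subunits of complex I the log2 fold changes were -0.26 for Ndufs1, which carries iron-sulphur clusters, 0.43 for Ndufs3, -0.07 for Ndufs7 and -0.34 for Ndufs8. Ndufv1, the NADH binding subunit, had 0.26 and Ndufv2, its partner with an iron-sulphur cluster, -0.24. All of these had limma adjusted p of 0.742 or more. The value of Ndufs3 rested on an uneven set of controls: 5.41 on EXO-BSA 1, 4.80 on EXO-BSA 2 and 2.58 on EXO-BSA 4, with the spot of EXO-BSA 3 left out as uneven, against 4.58, 4.65 and 4.86 on the EXO-Palm arrays. Without EXO-BSA 4 its log2 fold change was -0.41. Ndufb9, an accessory subunit, was low on the same control array, at 2.47 on EXO-BSA 4 against 5.18 to 6.49 on the other EXO-BSA arrays and 4.81 to 5.62 on the EXO-Palm arrays. Its standard error of 0.84 was the widest of the complex I genes, and without EXO-BSA 4 its log2 fold change turned from 0.30 to -0.56.

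The accessory subunits with the highest log2 fold changes were Ndufa6 and Ndufb3. Ndufa6 had 3.94, 4.06, 3.55 and 2.40 in EXO-BSA and 4.29, 3.81 and 4.13 in EXO-Palm cells (0.59, SE 0.39, limma adjusted p = 0.662). Here too EXO-BSA 4 was the lowest array, and without it the log2 fold change was 0.22. Ndufb3 had 3.08, 3.91, 3.06 and 3.82 in EXO-BSA and 4.17, 3.76 and 4.12 in EXO-Palm cells (0.55, SE 0.28, limma adjusted p = 0.574). Ndufa11, an accessory membrane subunit, was one of the 4 subunits whose groups did not overlap, with 2.93, 2.89, 3.28 and 3.07 in EXO-BSA and 2.64 and 2.69 on EXO-Palm 1 and 3. The spot on EXO-Palm 2 was left out of the fit as uneven, so that the exact permutation p (0.133) had a smallest possible value of 0.0667. Ndufa4, once assigned to complex I and now to complex IV, had a log2 fold change of 0.22 (SE 0.22).

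Complex II, the succinate dehydrogenase, links the citric acid cycle to the chain and is encoded wholly in the nucleus. Its 4 genes had log2 fold changes of 0.05 for Sdha, the flavoprotein, -0.06 for Sdhb, the iron-sulphur subunit, -0.76 for Sdhc and 0.42 for Sdhd, the 2 membrane anchors. Sdhc had 4.06, 3.36, 3.31 and 3.91 in EXO-BSA and 2.82, 2.80 and 3.09 in EXO-Palm cells. Each EXO-Palm array was below each EXO-BSA array. The difference of -0.76 (SE 0.25, 95% interval -1.33 to -0.18) had a limma adjusted p of 0.360 and an exact permutation p of 0.0571. A second Sdhc probe, a short distance away in the same transcript, gave 3.53, 2.54, 3.29 and 3.30 in EXO-BSA and 2.76, 3.43 and 2.62 in EXO-Palm cells (-0.23, SE 0.31). On this probe the groups overlapped. Sdhd had a low value of 2.59 on EXO-BSA 2 against 4.00 to 4.40 on the other EXO-BSA arrays and 4.11 to 4.39 on the EXO-Palm arrays, and without EXO-BSA 2 its log2 fold change was 0.025.

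Complex III, the cytochrome bc1 complex, contributed 7 genes with a median log2 fold change of -0.01, 3 above 0 and 4 below. The median was -0.14 when all tested probes of a gene were averaged. Uqcrc1, a core protein on the matrix side, had 1.83, 2.37, 1.83 and 0.82 in EXO-BSA and 2.25, 2.44 and 2.25 in EXO-Palm cells (0.60, SE 0.34, limma adjusted p = 0.606). One control array, EXO-BSA 2, lay among the EXO-Palm values, and without EXO-BSA 4, the lowest, the log2 fold change was 0.30. Its partner core protein Uqcrc2 had -0.14 (SE 0.19). Uqcrfs1, the Rieske iron-sulphur protein, had -0.29 (SE 0.33), with its EXO-Palm 2 spot left out as uneven.

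Complex IV, the cytochrome c oxidase, contributed 16 genes, 4 above 0 and 12 below, with a median log2 fold change of -0.10. Of all tested probes, 52.7% were below 0. EXO-BSA 3 and EXO-Palm 2 were each alone on a slide and add nothing to a fit that blocks on slide. In that fit the median of complex IV was -0.26, and without EXO-Palm 2 it was -0.24. It turned to 0.016 on the log2 values the authors deposited and to 0.021 after normexp and quantile normalization, each with 8 genes above 0 and 8 below. The genes were also divided 8 to 8 without EXO-Palm 1, with a median of -0.03, so that neither the sign nor the excess below 0 held in all fits. On the normalized values the median over the complex IV genes was -0.29, -0.0024 and -0.13 on EXO-Palm 1, 2 and 3 relative to the EXO-BSA means, against -0.05 to 0.18 on the EXO-BSA arrays. The groups thus overlapped. No gene of the complex passed the test.

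Cox5b, a nuclear subunit that binds zinc, had 4.92, 4.99, 4.67 and 4.46 in EXO-BSA and 4.46, 3.61 and 4.27 in EXO-Palm cells. The highest EXO-Palm value lay just under the lowest EXO-BSA value. The log2 fold change was -0.65 (SE 0.26, limma adjusted p = 0.464; exact permutation p = 0.0571). It was -0.50 within slide 1 (EXO-Palm 1 against EXO-BSA 1 and 2) and -0.20 within slide 3 (EXO-Palm 3 against EXO-BSA 4), and -0.40 without EXO-Palm 2.

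Cox6b1, the common isoform of a subunit at the dimer contact, had 2.86, 2.89, 2.03 and 2.60 in EXO-BSA and 2.39, 1.68 and 1.22 in EXO-Palm cells. EXO-BSA 3 was below EXO-Palm 1, so the groups overlapped. The log2 fold change was -0.83 (SE 0.33, limma adjusted p = 0.451). Its testis isoform Cox6b2 was dim, being well above background on all 4 EXO-BSA and 2 of 3 EXO-Palm arrays, and had the lowest log2 fold change of the complex, -0.92 (SE 0.65). Most of this came from EXO-Palm 3, at -4.78, while the other EXO-Palm arrays had -2.13 and -1.99 and the EXO-BSA arrays -2.78 to -1.55. Without EXO-Palm 3 it was -0.017.

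The other isoform sets of complex IV had the muscle and the general form side by side. Cox4i1, the general form of the regulatory subunit IV, had 5.95, 6.13, 5.83 and 6.07 in EXO-BSA and 5.94, 6.24 and 6.29 in EXO-Palm cells (0.16, SE 0.20), and Cox4i2, its lung isoform, had -0.22 (SE 0.30). Cox6a1, the liver form, and Cox6a2, the heart and muscle form, had -0.11 (SE 0.21) and -0.18 (SE 0.21). Cox7a1, the muscle form, had -0.23 (SE 0.22), Cox7a2, the liver form, -0.10 (SE 0.35) and Cox7a2l, a supercomplex factor, 0.07 (SE 0.27). Cox8a and the muscle form Cox8b had -0.10 (SE 0.25) and -0.0033 (SE 0.25). None of these passed the test, muscle and general forms alike, and each 95% interval lay between -1 and 1. Cox5a had -0.04 (SE 0.28), and Cox7b -0.54 (SE 0.32) with its EXO-BSA 4 spot left out. With that spot kept, Cox7b had -0.26.

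Complex V, the ATP synthase, contributed 14 genes with 5 above 0 and 9 below and a median log2 fold change of -0.17. The per-array medians of complex V were -0.11, -0.27 and -0.00068 on EXO-Palm 1, 2 and 3, and -0.06 to 0.13 on the EXO-BSA arrays, so that the groups again overlapped. The fit that blocked on slide gave a median of -0.05, with 7 genes on each side of 0. It took nothing from EXO-BSA 3 and EXO-Palm 2. Atp5a1 and Atp5b, which encode the alpha and beta subunits of the catalytic head, had -0.24 (SE 0.31) and -0.16 (SE 0.34). For Atp5a1 the spots of EXO-BSA 3 and 4 were left out as uneven, and with them kept its log2 fold change was 0.15.

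Atp5g3, which encodes one of the copies of the membrane c subunit that forms the rotor ring, had the lowest log2 fold change of all members. Its values were 5.82, 5.99, 5.81 and 5.98 on the EXO-BSA arrays and 4.97 and 4.59 on EXO-Palm 1 and 3. The spot of EXO-Palm 2 was marked as uneven and left out, and the value it carried was 5.06. All the EXO-Palm values, the one left out included, were below all the EXO-BSA values, and the EXO-BSA arrays were tightly grouped at 5.90 ± 0.10 (SD, n = 4). The log2 fold change was -1.12 (SE 0.23, 95% interval -1.67 to -0.58), equal to -0.94 within slide 1 and -1.40 within slide 3. The limma adjusted p was 0.133, and the exact permutation p was 0.0667, the smallest that 4 against 2 arrays allow. With the flagged spot kept, the log2 fold change was -1.03 (limma adjusted p = 0.0882). Among the alternatives with adjusted p, it passed only after normexp background correction with quantile normalization, at -1.61 (limma adjusted p = 0.0457). Atp5g2, a second c subunit gene encoding the same mature protein, had 0.03 (SE 0.26).

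Atp5c1 encodes the gamma subunit, the central stalk that turns inside the catalytic head. Its brightest probe, A_55_P2150908, had 3.44, 3.05, 3.21 and 3.36 in EXO-BSA and 3.48, 2.80 and 3.76 in EXO-Palm cells (0.08, SE 0.26, limma adjusted p = 0.941). The groups overlapped. The other probe, A_55_P2150906, had 1.67, 2.57, 1.88 and 2.17 in EXO-BSA and 1.38, 0.56 and 0.83 in EXO-Palm cells. There the groups did not overlap, and the log2 fold change was -1.15 (SE 0.29, limma adjusted p = 0.194; exact permutation p = 0.0286, the smallest that 4 against 3 arrays allow). It passed with normexp and quantile normalization, at -1.49 (limma adjusted p = 0.0408), as Atp5g3 did. The difference between the probes was not tested, and the level of the gene is therefore uncertain from these arrays.

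**Figure D2:**
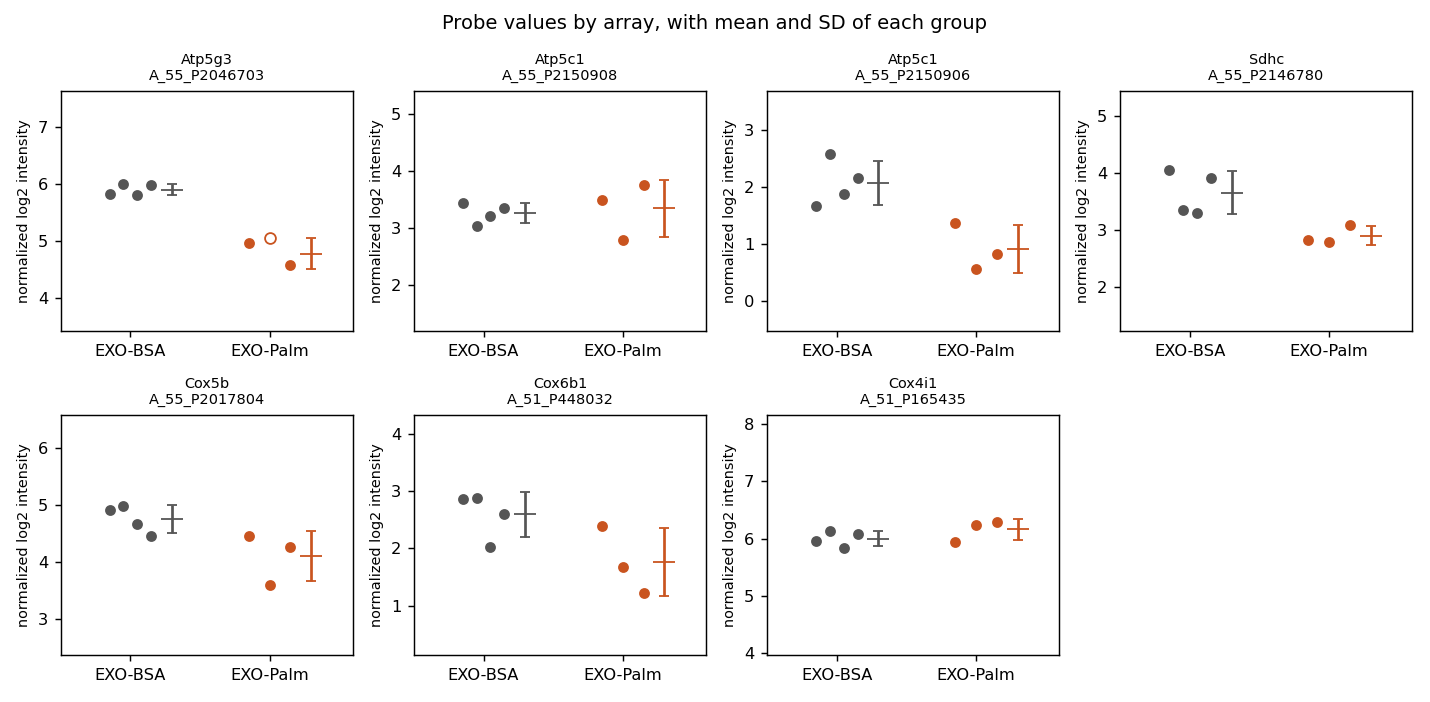
Normalized log2 intensity (y axis) of each array for 7 probes, with the EXO-BSA arrays in grey and the EXO-Palm arrays in orange, the group mean as a horizontal mark and its SD as the bar. The open circle for Atp5g3 is the EXO-Palm 2 spot left out as uneven (5.06), and the panels of Atp5c1 differ, with log2 fold changes of -1.15 for A_55_P2150906 and 0.08 for A_55_P2150908.

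Of the other ATP synthase subunits, Atp5o, which belongs to the peripheral stalk, had 2.99, 3.47, 3.39 and 3.20 in EXO-BSA and 3.67, 1.41 and 2.34 in EXO-Palm cells (-0.79, SE 0.46, limma adjusted p = 0.615). The EXO-Palm arrays spread more widely than the EXO-BSA arrays and reached above and below them, and without EXO-Palm 2 the log2 fold change was -0.26. Atp5f1 and Atp5k, of the stalk and the membrane part, had -0.39 (SE 0.25) and -0.35 (SE 0.28). The other probe of each gene went the opposite way, with 0.36 for Atp5f1 and 0.19 for Atp5k. Atp5d, Atp5j and Atp5l lay between 0.02 and 0.11.

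Several of the member genes were read by more than one probe, and these probes often disagreed. Of the 23 such genes, 13 had probes with log2 fold changes of opposite sign, and in 2 of them, Cox7c and Atp5c1, the probes differed by more than 1. Cox7c, a complex IV subunit, had 0.25 (SE 0.24) for its brightest probe and -0.80 (SE 0.72) and 0.69 (SE 0.66) for the others. Of these, A_55_P1999838 had a value of 0.37 on EXO-Palm 2 against 2.40 to 3.92 on the other arrays, and A_55_P2081005 a value of -5.99 on EXO-BSA 3 against -3.81 to -2.84. Without these arrays the log2 fold changes were 0.13 and 0.032. The 5 probes of Atp5l covered -0.47 to 0.36, while probes of Ndufv3, Cox8a and Ndufb6 agreed to within 0.07.

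**Figure D3:**
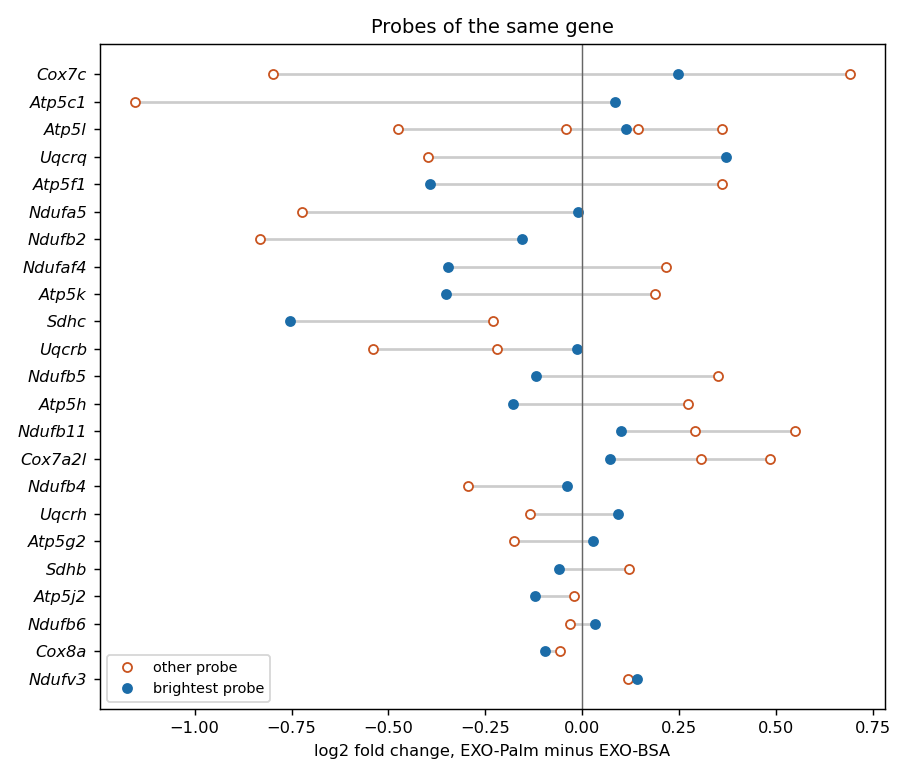
Log2 fold change (x axis, EXO-Palm minus EXO-BSA) of each tested probe of the 23 member genes with several probes, filled for the brightest probe and open for the others, ordered by the range between probes. The widest ranges are those of Cox7c (1.49) and Atp5c1 (1.24).

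**Figure D4:**
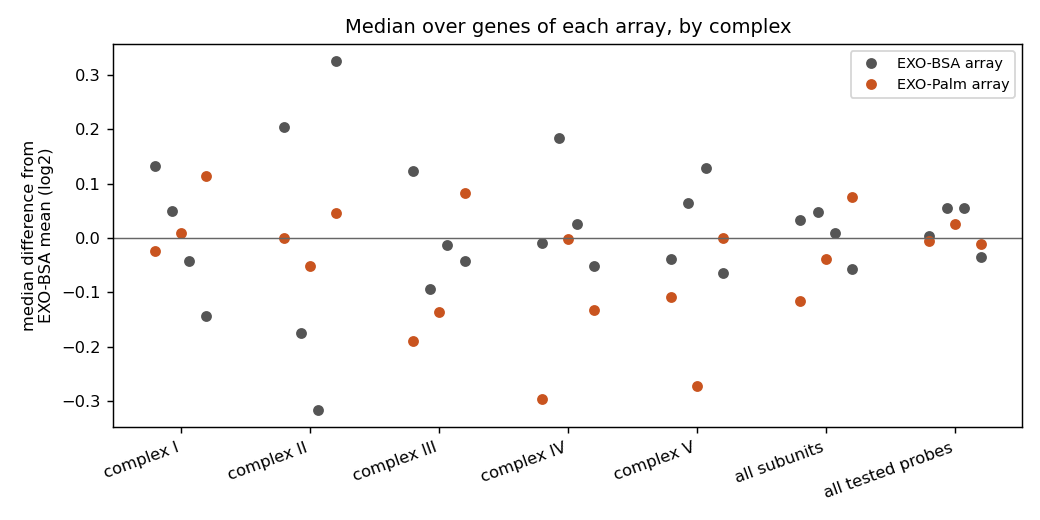
Median over genes of the difference from the EXO-BSA mean (y axis, log2) on each array, for complexes I to V, all subunits and all tested probes. EXO-BSA arrays are grey and EXO-Palm arrays orange, and the points of the groups overlap in each column.

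Outside the subunits, the 7 genes that share a name with them had a median log2 fold change of 0.04. Of these 0 passed, against 0.533% of all tested probes. Ndufaf4, a complex I assembly factor, had the lowest value, -0.35 (SE 0.19), with 1.43, 1.31, 1.53 and 1.65 in EXO-BSA and 1.22, 1.11 and 1.07 in EXO-Palm cells. These groups did not overlap (limma adjusted p = 0.595; exact permutation p = 0.0571). A second probe of the gene had 0.21 (SE 0.32).

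Other mitochondrial genes were examined in 6 lists with 92 tested genes, and 0 passed, against 0.533% of all tested probes. At so low a share, lists of this size could hold none without differing from other probes. At an unadjusted limma p under 0.05 there were 3 (3.26%, against 10.0% of all tested probes), all with negative log2 fold changes: Cox15, a complex IV assembly factor needed for haem A, Dlat, a subunit of pyruvate dehydrogenase, and Ppargc1a, the coactivator PGC-1alpha that drives mitochondrial biogenesis. Ppargc1a, whose probe was dim, had -3.32, -3.69, -3.42 and -3.54 in EXO-BSA and -4.08, -4.09 and -4.29 in EXO-Palm cells, so that the groups did not overlap. This was so for 4 of the 92 genes (4.35%, against 11.3% of all tested probes), the others being Cox15, Dlat and Polg, the mitochondrial DNA polymerase, which was higher on the EXO-Palm arrays (0.36). The log2 fold change of Ppargc1a was -0.66 (SE 0.19, limma adjusted p = 0.278). Cox15 had -0.68 (SE 0.23) and Dlat -0.48 (SE 0.21). The transcription factors Nrf1, Gabpa and Tfam had 0.15 (SE 0.23), -0.21 (SE 0.25) and 0.18 (SE 0.26), and Esrra 0.01 (SE 0.41).

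The 12 mitochondrially encoded subunits had 4 log2 fold changes above 0 and 8 below, with a median of -0.27. The direction differed between slides. Within slide 1 all 12 were lower on the EXO-Palm array (median -0.65), and within slide 3 it was 2 of 12 (median 0.32). ND3, a complex I subunit, had -1.41 within slide 1 and 0.81 within slide 3, and COX1, the catalytic subunit of complex IV, -1.23 and 0.29. Over all arrays, ND4 had -0.44 (SE 0.23), ND1 -0.31 (SE 0.23), COX1 -0.03 (SE 0.39), CYTB 0.20 (SE 0.31) and ND6, encoded on the other strand, 0.51 (SE 0.27). COX2 had a log2 fold change of -4.22 that rested on EXO-Palm 2 alone, which read -5.06 against 5.48 to 7.79 on the other 6 arrays. The genes of pyruvate dehydrogenase and the citric acid cycle, 17 in all, had a median of -0.10, the 24 assembly factors outside the naming rule -0.0033, the 19 regulators of biogenesis -0.07, the 10 carriers and channels -0.09 and the 10 further subunits and electron carriers 0.02. Cytochrome c (Cycs) had 0.35 (SE 0.25).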

How the data were processed

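RNA from 4 EXO-BSA and 3 EXO-Palm samples had been labelled with Cy3 and hybridised to 1-colour Agilent mouse arrays. The submitters' processing notes name Agilent Feature Extraction 9.1 and limma, whereas the file headers give version 10.7.3.1 on 6 arrays and 11.5.1.1 on EXO-BSA 3. The deposited files hold spot intensity values, of which the processed signal given by Feature Extraction was used. They also hold a table of the authors' own log2 values, whose rows follow the spot order of the scanner files, used as an alternative.

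Control spots were left out, and so were spots marked uneven or as population outliers. The log2 processed signal was reduced by its 75th percentile on each array, and the spots of a probe were averaged. Of 39429 probes, 21589 were well above background on at least 3 arrays of one group and were tested with limma 3.58.1 in R 4.3.3, without covariates, with Benjamini-Hochberg adjustment (threshold 0.05). Confidence intervals (95%) used the moderated degrees of freedom and cover each gene alone. Exact permutation tests enumerated all 35 divisions of 4 against 3 arrays, or fewer where spots were left out, and were two-sided. The fit was tested on simulated data whose changes were larger than those of any member. That test does not show how well smaller changes are found. Alternatives were other normalizations and filters, slide (4 slides) and replicate number as a block, array weights, the methods' t-test, and the omission of each array. Because EXO-BSA 3 lacks the mean signal, normexp used the median signal and the median background on all arrays. Members and gene lists were chosen with earlier results of these data known. Genes named in the text were those past the threshold, the 6 highest and 6 lowest members, core subunits, isoform sets, members whose probes disagreed, and the highest, lowest and unadjusted calls of the other lists. Others, and the arrays that decide their values, were named after their values were seen.

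Gene names are those of the array. By accession, 84 of 85 members matched RefSeq (GRCm38.p6), 79 under the same symbol. Probe coordinates are those of the array's annotation (mm9). Probes of 9 subunits may also bind transcripts of named pseudogenes. The labels call the samples biological replicates and give cell line names running from C2C12 to C2C18. They do not say how the cultures were separated, so p-values measure the spread between these samples. The number of arrays limits the precision. The values of 1 subunit gene are not reported here, although it remains in the counts and medians.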

Additional observations from a re-analysis of the deposited data

Results flagged for a closer look

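Among 78 member genes with 4 complete EXO-BSA values, 3 had 1 EXO-BSA array further from the other 3 than Dixon's 95% limit allows, and chance alone gives such a gap in about 1 group in 20. Cox7a2l read 6.19 on EXO-BSA 3 against 5.43 to 5.50 on the other EXO-BSA arrays. Atp5l read 4.67 on EXO-BSA 1 against 5.58 to 5.67. Atp5sl read -0.12 on EXO-BSA 1 against 0.57 to 0.69. None of these genes passed the test, and the cause of the gaps was not tested.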

How the results depend on the processing

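Across 24 alternatives, 0 subunits passed in every fit with adjusted p except normexp with quantile normalization, where 1 (Atp5g3, lower) passed. Without adjustment, limma gave 5 subunits (1 higher, 4 lower) and the methods' t-test 3. In the other mitochondrial lists these counts were 3 and 4. The median of the subunits ran from -0.12 to -0.02 among the alternatives fitted to all 7 arrays, the blocked fits included. It ran from -0.10 to 0.030 when 1 array was left out, being above 0 only without EXO-Palm 1. With the 75th percentile taken over probes above background on all arrays, 38 subunits were above 0 and 40 below. The number of all tested probes called was 115. It was 181 with slide as a random block, 173 with trended and robust variances, 2169 by limma and 2108 by the methods' t-test without adjustment, and 0 by the methods' t-test after adjustment or without a filter on dim probes. Leaving out one array gave 0 to 202 (0, 44, 21 and 68 without EXO-BSA 1 to 4, and 7, 202 and 27 without EXO-Palm 1 to 3). With the replicate block it was 0, and the subunits' median was -0.10. That block took nothing from EXO-BSA 4, the only array with replicate number 4. Arrays with the same replicate number did not deviate together (correlations 0.12, -0.15 and -0.15), so the numbers were not taken as pairs. Pairs on the same slide had 0.12 (EXO-BSA 1 and EXO-Palm 1), 0.31 (EXO-BSA 2 and EXO-Palm 1) and 0.17 (EXO-BSA 4 and EXO-Palm 3). The highest value of a pair on different slides was 0.20 (EXO-BSA 3 and EXO-Palm 2). EXO-BSA 3 and EXO-Palm 2 were each alone on a slide, so the fixed block on slide took nothing from them. That block changed the sign of 17 of the 78 subunits, as did leaving out EXO-Palm 2. Among probes whose log2 fold change exceeded its standard error, the block did so for Atp5l probe A_55_P2067682 (0.035), Cox7c probes A_55_P1999838 (0.15) and A_55_P2081005 (-0.20) and Ndufa2 (0.059). Leaving out EXO-Palm 2 did so among these for Cox7c probe A_55_P1999838 (range over arrays left out -1.50 to 0.13) and Ndufa2 (-0.59 to 0.021). In all, 50 of 85 member genes changed sign under some alternative, the largest absolute log2 fold change among them being 0.43 (Ndufs3). The alternatives with flagged spots kept and without adjustment in limma, and the within-slide values, were chosen after seeing the data. The cause of these shifts was not tested.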
